A study of Homo sapiens with 8 samples.

Results

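The mesenchymal microRNAs of the miR-199, miR-214, miR-143 and miR-145 families were examined in HEK293 cells, an established human embryonic kidney line. The small RNA count table held miR-199a-5p, miR-199a-3p, miR-199b-3p, miR-214-3p, miR-143-3p and miR-145-5p, which is every entry, 6 of 2867, whose name gives miR-199a, miR-199b, miR-214, miR-143 or miR-145 with or without an arm. The table held no entry for the opposite arms miR-199b-5p, miR-214-5p, miR-143-5p and miR-145-3p, so these were not analysed here. The study transfected an ASO (antisense oligonucleotide, a synthetic strand complementary to an RNA of choice) and asked whether small RNAs other than its target changed. ASO at 100 nM was given to the cells behind 4 libraries, and the cells behind 4 control libraries received none; harvest was at 48 h. Its target was miR-31 by the names of the libraries, no library is labelled with an unrelated ASO, and the control labels do not say whether those cells were mock-transfected.

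These microRNAs are known from mesenchymal tissue. MicroRNAs are cut from hairpin precursors as a 5′ arm and a 3′ arm, and bases 2 to 8 of the mature strand, the seed, pair with target messenger RNAs. miR-143 and miR-145 are made from 1 primary transcript in smooth muscle and fibroblasts, where they favour the contractile state. miR-145-5p represses the transcription factor KLF4, and miR-143-3p represses ELK1. miR-214 and 1 of the hairpins for miR-199a are made from the noncoding RNA DNM3OS, which is active in embryonic mesenchyme and in fibrosis. miR-199a-5p represses caveolin 1, miR-199a-3p represses MTOR and MET, and miR-214-3p represses EZH2.

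The mature sequences are shown because they decide which entries a read could be given to. All 6 names matched RefSeq (GRCh38.p14), and the strands are given 5′ to 3′ with the seed in capitals.
miR-199a-5p: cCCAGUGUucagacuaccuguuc
miR-199a-3p: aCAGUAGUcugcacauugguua
miR-199b-3p: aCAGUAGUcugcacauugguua
miR-214-3p: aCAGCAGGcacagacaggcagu
miR-143-3p: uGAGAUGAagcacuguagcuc
miR-145-5p: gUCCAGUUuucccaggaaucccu
miR-199a-3p and miR-199b-3p are the same 22 bases, so a read that ends within these bases cannot separate them. miR-199a-5p comes from the opposite arm and has another seed, CCAGUGU, against CAGUAGU in the 3p strands. The other 3 members each have a seed of their own.

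The miR-199 sequences come from 3 hairpins. They are shown 5′ to 3′ from the same RefSeq build, with the arms of the listed entries in capitals, to set the separate places of the arms beside their counts.
MIR199A2: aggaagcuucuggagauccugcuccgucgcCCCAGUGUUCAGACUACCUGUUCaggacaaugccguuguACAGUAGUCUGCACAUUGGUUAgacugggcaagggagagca
MIR199A1: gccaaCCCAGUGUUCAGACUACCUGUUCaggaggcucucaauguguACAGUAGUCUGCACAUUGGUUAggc
MIR199B: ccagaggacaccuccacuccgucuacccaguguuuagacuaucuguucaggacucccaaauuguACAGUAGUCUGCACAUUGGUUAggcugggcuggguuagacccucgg
In GRCh38 (GENCODE release 29), MIR199A2 lies at chr1:172144535-172144644 on the minus strand, partly in an exon of DNM3OS and in an intron of DNM3 on the other strand. MIR199A1 lies at chr19:10817426-10817496 and MIR199B at chr9:128244721-128244830, both on the minus strand in introns of DNM2 and DNM1, which run on the plus strand. A miR-199 3p read that ends within the shared bases therefore cannot say which of the 3 loci it came from. How the counts treated longer reads is not given in the sources used here. MIR214 lies at chr1:172138798-172138907, in an exon of DNM3OS and 5627 bases from MIR199A2. MIR143, at chr5:149428918-149429023 on the plus strand, lies in an exon of the noncoding RNA gene CARMN. MIR145, at chr5:149430646-149430733, lies 1622 bases further on in an intron of CARMN.

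Library totals lay between 8168828 and 11677123 counts, and 1 count was worth 0.0856 to 0.122 CPM, the count scaled to its library total. Levels below are CPM scaled by TMM, edgeR's correction for library composition, and are shown as mean ± SD (n = 4 per group). Separate cultures are not stated in the labels, so the p-values speak of the spread between libraries, which may be technical. Ligation and PCR favour some small RNAs, so the order of levels between microRNAs holds for these libraries only. For orientation, miR-21-5p, miR-7-5p and let-7a-5p ranked 1, 2 and 6 by mean level among the 903 known entries, which is no check of the cell line, since they were chosen with these levels known.

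The members were sparse to moderate in abundance, and miR-143-3p and miR-145-5p, neighbours in CARMN, were counted at different levels. Over all 8 libraries, miR-143-3p averaged 96.6 CPM (rank 173 of the known entries), miR-199b-3p 23.6 CPM (rank 256), miR-145-5p 5.06 CPM (rank 386) and miR-214-3p 0.245 CPM (rank 707). The lowest library for miR-143-3p, at 87.6 CPM, lay above the highest for any miR-199 entry, at 32.4 CPM. The lowest for miR-199b-3p, at 11.4 CPM, lay above the highest for miR-145-5p, at 6.47 CPM. The miR-199a entries had their lowest library at 4.34 CPM, which is inside the range of miR-145-5p. The lowest library for miR-145-5p, at 4.04 CPM, lay above the highest for miR-214-3p, at 0.479 CPM.

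**Figure D1:**
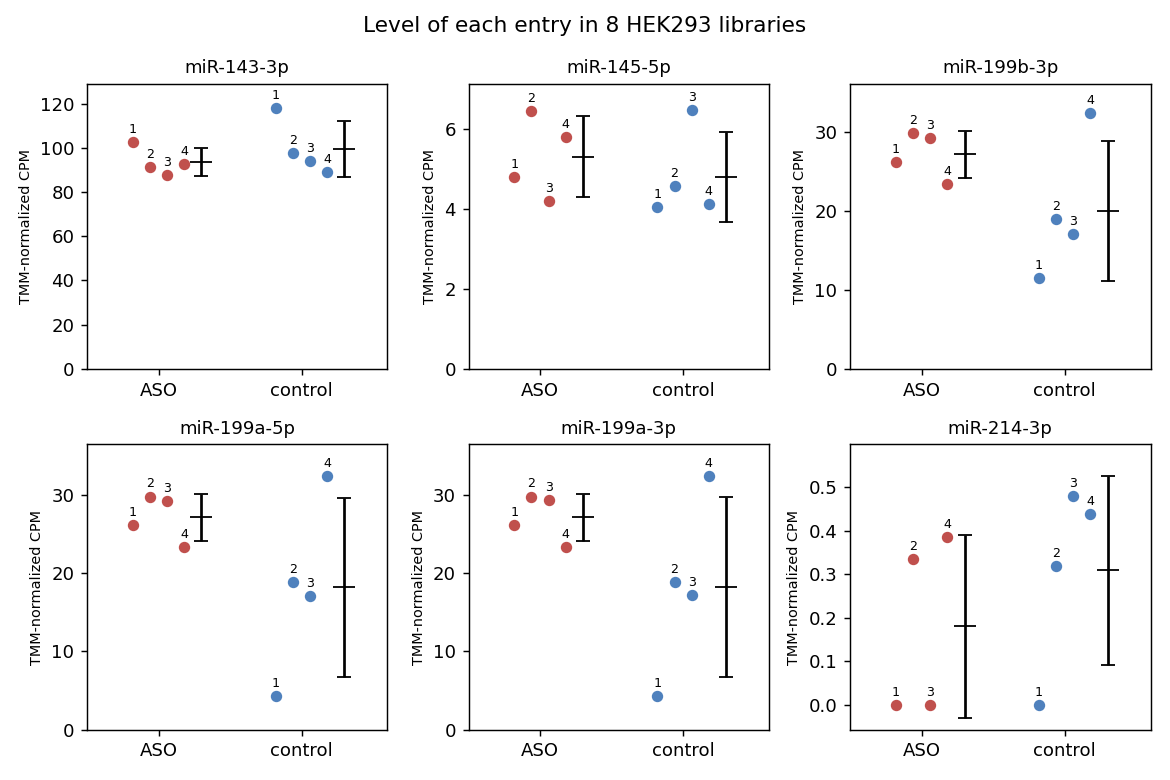
Level of each member in TMM-normalized CPM (vertical axes, on a scale of their own in each panel), with the ASO libraries left of the control libraries. Points are libraries, marked by number, and bars are the mean ± SD of 4. The groups overlap in every panel, and control library 1 is the lowest point for the 3 miR-199 entries and the highest for miR-143-3p.

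With ASO, 0 of the 5 members tested passed the threshold, an adjusted p of 0.05 in edgeR's quasi-likelihood test with Benjamini-Hochberg adjustment over 745 entries, and 0 of 6 had groups that did not overlap. Over all tested entries 0.134% were called, and 8.32% had groups that did not overlap. None of the 5 had an unadjusted p under 0.05, against 10.5% of all tested entries, and DESeq2 called 0 members and 5.45% of the entries to which it gave an adjusted p. The fold was above 1 in 4 of the 5 (80%), but 3 of those are the miR-199 entries, which carry nearly the same counts. The members' median log2 fold change was 0.44, beside 0.01 over all entries tested, where 51.7% had a fold above 1.

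miR-143-3p, the most abundant member, was counted 1006, 1088, 980 and 959 times in ASO libraries 1 to 4, and 1196, 917, 785 and 1014 times in control libraries 1 to 4. Its levels were 103, 91.3, 87.6 and 92.6 CPM in ASO libraries 1 to 4, and 118, 97.4, 94.0 and 88.9 CPM in control libraries 1 to 4. Control library 1 was the highest of the 8, and the other 7 lay close together with no order by group. The mean was 93.5 ± 6.40 CPM in ASO libraries and 99.6 ± 12.7 CPM in control libraries. The fitted log2 fold change was −0.09 (SE 0.10; 95% bounds −0.33 and 0.15; adjusted p = 0.768), or 0.939-fold with bounds of 0.793 and 1.11. Without control library 1 the control mean was 93.5 CPM and the log2 fold change turned to 0.016.

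miR-145-5p, whose hairpin lies in CARMN as does that of miR-143-3p, was counted 47, 77, 47 and 60 times in ASO libraries 1 to 4. In control libraries 1 to 4 it was counted 41, 43, 54 and 47 times. The highest library of each group, ASO library 2 and control library 3, stood at nearly the same level, 6.46 and 6.47 CPM. The mean was 5.31 ± 1.01 CPM in ASO libraries and 4.80 ± 1.14 CPM in control libraries. The log2 fold change was 0.15 (SE 0.22; 95% bounds −0.38 and 0.67; adjusted p = 0.838), and ranged from 0.039 to 0.32 when 1 library was left out. It was 0.039 without ASO library 2 and 0.32 without control library 3. Control library 1, which was highest for miR-143-3p, was the lowest of the 8 for miR-145-5p.

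The 3 miR-199 entries did not behave as 3 measurements. miR-199a-5p was counted 257, 355, 327 and 242 times in ASO libraries 1 to 4, and 44, 178, 143 and 369 times in control libraries 1 to 4. miR-199a-3p, the opposite arm, had the same count in 6 of 8 libraries and 1 count more in ASO library 3 (328) and control library 3 (144). miR-199b-3p had the count of miR-199a-5p in 7 of 8 libraries. The exception was control library 1, where miR-199b-3p was counted 116 times and both miR-199a entries 44 times. The exact Poisson 95% intervals of these counts, 95.9 to 139 and 32.0 to 59.1, do not overlap, though they cover counting error only. They are no test of a difference between miR-199a-3p and miR-199b-3p, whose mature sequences are the same.

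**Figure D2:**
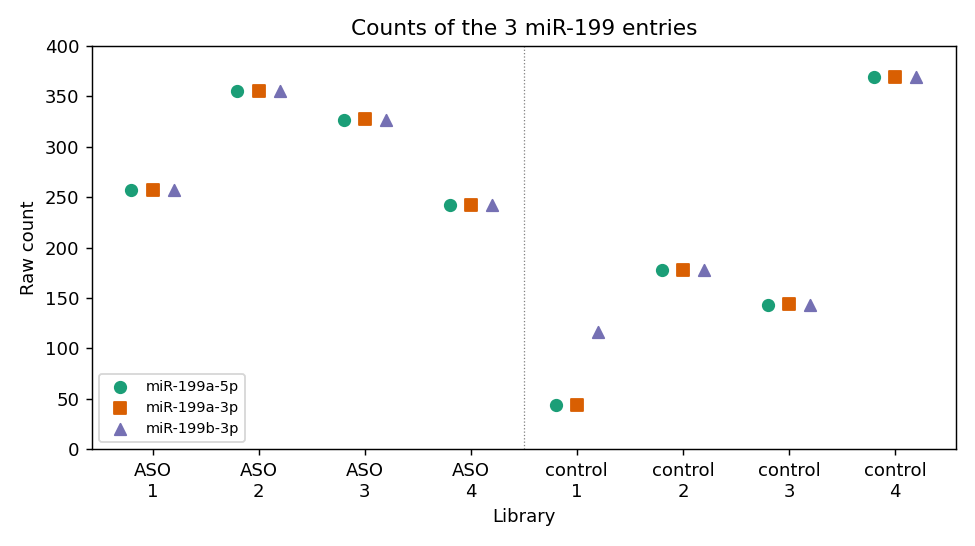
Raw count (vertical axis) of the 3 miR-199 entries in each library, with ASO libraries left of the dotted line and control libraries right of it. The symbols lie within 1 count of each other in 7 libraries and separate in control library 1, where miR-199b-3p is at 116 counts and the miR-199a entries at 44.

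The mature arms of miR-199a share no seed and lie apart in the hairpins shown above, yet their entries were within 1 count in all 8 libraries. The authors' table lists a length of 21 for all 3 miR-199 entries, while RefSeq gives 23 bases for miR-199a-5p and 22 for both 3p strands. For miR-214-3p, miR-143-3p and miR-145-5p the listed length equals that of RefSeq, 22, 21 and 23. Among 796 known entries matched to RefSeq by name, 47.1% had an equal length and 4.90% were listed at least 2 bases shorter, as miR-199a-5p was. Equal or nearly equal counts for opposite arms were seen in other hairpins too. Of 9 hairpins with both arms at a mean of at least 10 counts, 3 had arms within 1 count in at least 4 libraries. These were miR-199a and miR-135a, in all 8 libraries, and miR-887. For miR-887 this held in 4 of the 5 libraries where both arms had at least 10 counts. Its mean counts were 149.9 for the 5p and 101.4 for the 3p entry. The listed lengths of the arms were equal in all 3 hairpins, and in 2 of the 6 others. Both arms were listed for 17 hairpins among the 903 known entries. Which counter and annotation were used is not given in the sources used here. The values of every member, above and below, are therefore those of the entry and may hold either arm.

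As TMM-normalized levels, miR-199b-3p stood at 26.2, 29.8, 29.2 and 23.4 CPM in ASO libraries 1 to 4, and at 11.4, 18.9, 17.1 and 32.4 CPM in control libraries 1 to 4. The ASO libraries lay close together, while the controls held 3 libraries below all ASO libraries and 1 above them. The mean was 27.1 ± 2.98 CPM in ASO libraries and 19.96 ± 8.86 CPM in control libraries. The log2 fold change was 0.44 (SE 0.30; 95% bounds −0.25 and 1.13; adjusted p = 0.543), or 1.36-fold with bounds of 0.843 and 2.19. An exact two-sided permutation test of the mean log2(CPM + 1) gave p = 0.171, where 4 against 4 libraries allow a smallest p of 0.0286.

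For miR-199a-5p the same libraries gave 27.1 ± 2.98 CPM in ASO libraries and 18.2 ± 11.5 CPM in control libraries, since control library 1 stood at 4.34 CPM. Its log2 fold change was 0.58 (SE 0.50; 95% bounds −0.59 and 1.75; adjusted p = 0.669), and that of miR-199a-3p was also 0.58 (SE 0.50). The entry chosen thus moved the estimate and its error through 1 library.

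The size of the miR-199 difference moved with single control libraries. Without control library 1 the control mean of miR-199b-3p was 22.8 CPM and the log2 fold change 0.26 (adjusted p = 0.814), with 0.26 for both miR-199a entries as well. Without control library 4, the highest of the 8, the control mean was 15.8 CPM and the log2 fold change 0.78 (unadjusted p = 0.00647, adjusted p = 0.204), and miR-199a-5p and miR-199a-3p stood at 1.01. A block for library number, with no library left out, gave 0.86 for miR-199a-5p, 0.85 for miR-199a-3p and 0.54 for miR-199b-3p. All alternatives run kept a fold above 1 for the 3 entries, and none gave a call.

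**Figure D3:**
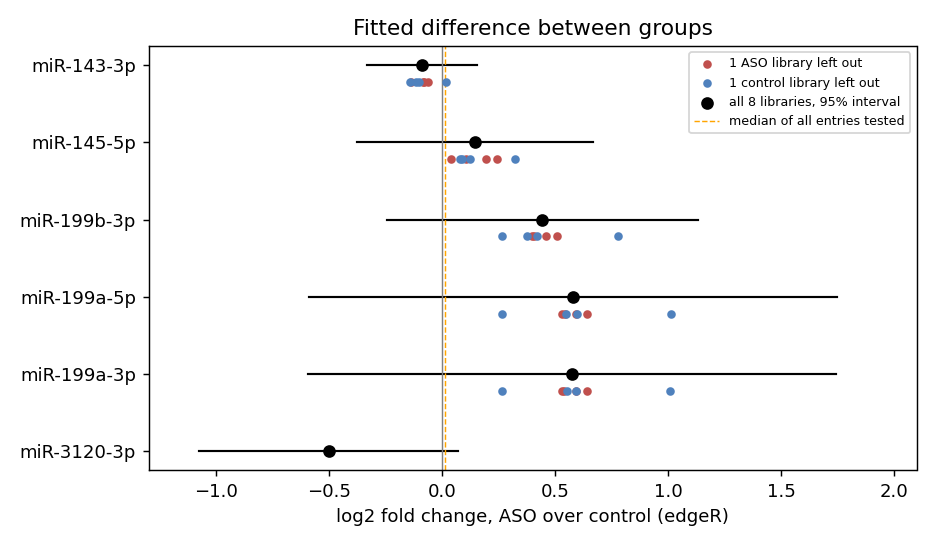
Fitted log2 fold change of ASO over control (horizontal axis) for the 5 members tested and for miR-3120-3p. Black points with lines are the fit on 8 libraries with its 95% interval, small points below them leave out 1 library (not drawn for miR-3120-3p), and the dashed line is the median of all entries tested. Every interval includes 0, and the miR-199 estimates move most with the control libraries left out.

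miR-214-3p, whose hairpin lies in DNM3OS as MIR199A2 does in part, was near the limit of detection. It was counted 0, 4, 0 and 4 times in ASO libraries 1 to 4, and 0, 3, 4 and 5 times in control libraries 1 to 4, or 8 counts in all with ASO and 12 in controls. A count of 0 allows a TMM-normalized level of up to 0.306 CPM in ASO library 1, 0.268 CPM in ASO library 3 and 0.296 CPM in control library 1, the level of 3 counts. Its mean count of 2.5 was under the minimum of 10 for testing, so no fold is given. A difference between the groups was not detectable at this depth (exact two-sided permutation test, p = 0.400).

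The strand opposite MIR214 holds another hairpin, MIR3120, in an intron of DNM3 and on its strand. Its product miR-3120-3p was counted more often than miR-214-3p in every library.
miR-3120-3p: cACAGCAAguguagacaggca
All 21 bases of this strand lie opposite miR-214-5p, and none lies opposite miR-214-3p. It was counted 24, 32, 21 and 27 times in ASO libraries 1 to 4, and 40, 22, 33 and 39 times in control libraries 1 to 4. Control library 2 lay within the ASO range and the other 3 controls above it. The mean was 2.40 ± 0.365 CPM in ASO libraries and 3.41 ± 0.759 CPM in control libraries (log2 fold change −0.50, SE 0.25, 95% interval −1.08 to 0.07, adjusted p = 0.445).

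The members also differed in how far the 8 libraries, ASO and control together, lay apart. A difference between the groups is part of this spread, and other entries were not compared within groups. For miR-143-3p the coefficient of variation over 8 libraries was 10.2%, against 3.19% from counting alone, and 53 of 74 other known entries within a factor of 2 of its mean varied at least as much. For miR-145-5p it was 20.4%, with 14.1% from counting alone, and 97 of 135 such entries varied at least as much. For miR-199b-3p it was 30.7%, with 6.88% from counting alone, and 19 of 94 such entries varied at least as much, around a median of 15.6%. The miR-199a-5p entry varied by 40.2%, matched or exceeded by 12 of 93. Both of these comparisons include the other miR-199 entries, which carry nearly the same counts, and both miR-199a entries are among the 19. Within groups the spread of miR-199b-3p was 11.0% with ASO and 44.4% in controls. For miR-143-3p it was 6.8% with ASO and 12.8% in controls, and for miR-145-5p 19.0% with ASO and 23.7% in controls. Whether the groups differ in spread was not tested.

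**Figure D4:**
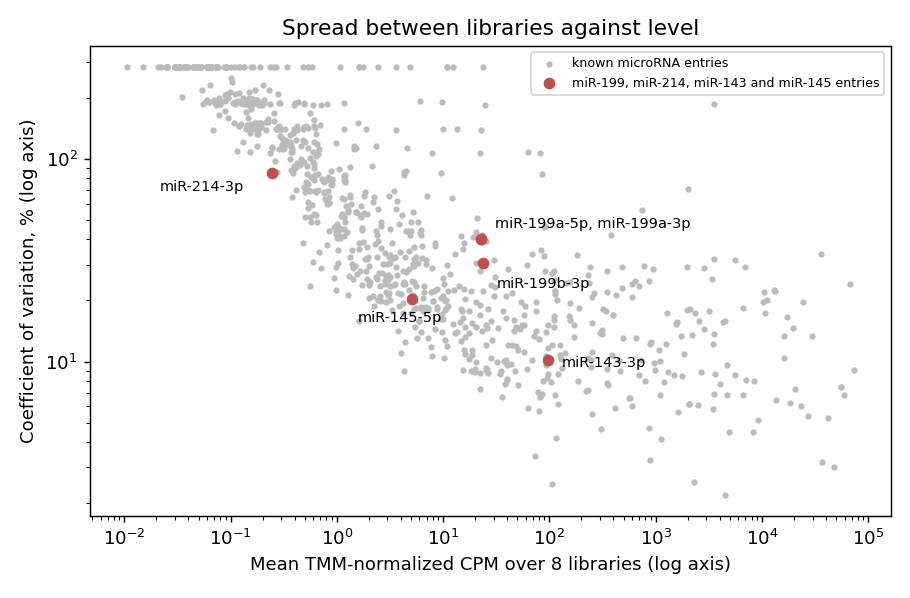
Coefficient of variation over 8 libraries in percent (vertical log axis) against mean TMM-normalized CPM (horizontal log axis) for known microRNA entries. Grey points are other known entries and red points the members. The miR-199 entries lie in the upper part of the cloud at their level, at 30.7% to 40.2%, and miR-143-3p in the lower part, at 10.2%.

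Of 324 other known entries with a mean of at least 100 counts, the 3 whose log2 level followed miR-199b-3p most closely over the 8 libraries were miR-328-3p (Pearson r = 0.98), miR-501-3p (0.95) and miR-1296-5p (0.95). Without control libraries 1 and 3, the 2 farthest from its median, these were 0.94, 0.78 and 0.86. For miR-143-3p they were miR-2682-5p (0.94), miR-215-5p (0.92) and miR-581 (0.92), and 0.93, 0.94 and 0.92 without control library 1 and ASO library 1. These are the highest of many correlations over 8 libraries that share depth and scaling, and are given as a description. Between members, r was −0.81 for miR-143-3p with miR-199b-3p, −0.30 for miR-143-3p with miR-145-5p and 0.08 for miR-199b-3p with miR-145-5p. Without the 2 libraries farthest from the median of the first-named member, these were −0.84, 0.36 and −0.07. The member pairs rest on the same 8 libraries and are a description too.

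Few other entries carry the members' seeds. miR-3129-5p, with the seed of miR-199a-3p, was counted 0 to 16 times per library, and miR-3619-5p, with the seed of miR-214-3p, 7 to 29 times (log2 fold change 0.26, adjusted p = 0.889).

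The list for connective tissue, vessel and cartilage held 6 entries, among them miR-3120-3p, from the strand opposite MIR214. None passed the threshold either, and 4 of the 6, all but miR-335-3p and miR-3120-3p, had higher means than any member. Of these 6, all tested, 3 had a fold above 1 and the median log2 fold change was −0.005. miR-218-5p, carried in introns of the SLIT genes, averaged 4975 ± 308 CPM in ASO libraries and 4938 ± 142 CPM in control libraries. miR-126-3p, the microRNA of endothelium, averaged 857 ± 32.0 CPM in ASO libraries and 869 ± 52.2 CPM in control libraries, and miR-140-3p, that of cartilage, 1344 ± 108 CPM in ASO libraries and 1276 ± 129 CPM in control libraries. Of 5 listed striated muscle entries 2 were tested and 0 called, with miR-499a-5p the highest at 26.5 ± 0.638 CPM in ASO libraries and 24.5 ± 3.18 CPM in control libraries. Of 5 blood entries only miR-486-5p was tested, at 81.6 ± 8.13 CPM in ASO libraries and 82.6 ± 1.90 CPM in control libraries, and miR-142-3p was at 0 in 7 of 8 libraries. Of 7 epithelial entries 5 were tested and 0 called. A fold above 1 was seen in 4 of the 5, beside 51.7% of all entries tested. Their median log2 fold change was 0.16, beside 0.01 over all entries tested. The most abundant, miR-200b-3p, was the one with a fold below 1, at 342 ± 19.7 CPM in ASO libraries and 370 ± 29.1 CPM in control libraries. The summed level of the epithelial list was 566 to 620 CPM in ASO libraries and 586 to 605 CPM in control libraries.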

How the data were processed

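Small RNA from HEK293 cells was sequenced in 4 ASO and 4 control libraries, made with a NEB small RNA kit from total RNA per the labels' protocols. The submitters' processing notes name bcl2fastq 2.20, Trimmomatic 0.30, GRCh38 and edgeR 3.4.6; no aligner, counter or source of microRNA names is given in the sources used here. The authors deposited raw counts per entry, which were used for every test. They also deposited CPM values, headed TPM, which equal the count scaled to the library total to within 0.223 CPM. A deposited length per entry was used only as a description.

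Libraries were grouped by title. Entries were tested (745, of them 539 known) if above 0 in at least 4 of 8 libraries and at 10 counts or more on average, using edgeR 4.0.16: TMM scaling (factors 0.966 to 1.03), trended dispersion and a two-sided quasi-likelihood test with Benjamini-Hochberg adjustment. The standard error is the size of the log2 fold change over the square root of F. No 2 replicates looked like a repeat deposit, since their counts gave a chi-square of 135 to 801 per degree of freedom. Sequences came from RefSeq and loci from GENCODE. Alternatives were other scalings and filters, DESeq2 1.42.0, known entries alone, a block for library number and leaving out each library. The text names every member, the entries most alike by Pearson r of log2(CPM + 1), and from fixed lists the most abundant entry; miR-126-3p, miR-140-3p, miR-142-3p, miR-3120-3p and the entries sharing a seed or with equal arms were named after their values were seen. The members and lists were chosen with earlier results of these data known. Exact Poisson intervals and limits of detection cover counting error only: PCR copies of a molecule are not independent. The bounds of a log2 fold change come from its standard error in the quasi-likelihood fit, which includes the spread between libraries.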

Additional observations from a re-analysis of the deposited data

How the results depend on the processing

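No member was called under any of the alternatives run, and the smallest adjusted p of any member was 0.204, without control library 4. DESeq2 gave no adjusted p for miR-145-5p. The direction of miR-143-3p turned to 0.0158 without control library 1, and no other member changed direction in any alternative run. Over the libraries left out, the log2 fold change ran from −0.14 to 0.016 for miR-143-3p, 0.039 to 0.32 for miR-145-5p, 0.26 to 1.01 for miR-199a-5p and miR-199a-3p, and 0.26 to 0.78 for miR-199b-3p. The count of called entries over the whole table, 1 in the main test, was 23 with DESeq2, 4 with known microRNAs alone, with identical entries kept once, with a mean count of at least 100 or, an alternative chosen after seeing the data, with miR-199a-5p and miR-199a-3p left out, and 0 with no filter. It ran from 0 (without control library 2) to 5 (without control library 4) when 1 library was left out. In the main test miR-122-5p, miR-1262 and miR-3177-3p each had an adjusted p of 0.0516, just above the threshold. The cause of the shifts in the count of called entries was not tested. A replicate block for library number left 0 called entries; the labels do not say that numbers pair libraries, and the correlation of same-numbered deviations was 0.040, 0.0071, 0.508 and −0.017. The ratio of arms was not tested, since among the members miR-199a was the one hairpin with both arms listed and its arms were within 1 count in all 8 libraries. Depth limits miR-214-3p most, at 0 to 5 counts per library.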
